A study of Homo sapiens with 6 samples.

Results

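LS174T, a mucin-producing line from a human colon adenocarcinoma, was cultured for 48 h with the vehicle DMSO or with 250 nM CompE, and the messenger RNA of 10 Kruppel-like factor (KLF) genes was read from the arrays. CompE is usually short for Compound E, which blocks gamma-secretase, the enzyme that cuts Notch receptors to free their signalling part. Each condition had 3 cultures with 1 Affymetrix Human U133 Plus 2.0 array per culture, all from this single line grown in the same serum-containing medium. The genes were KLF2, KLF3, KLF4, KLF5, KLF6, KLF7, KLF9, KLF10, KLF11 and KLF13, and every probe set that the platform annotation assigns to one of them was taken. That gave 32 of the 54674 probe sets. Of the 10 genes (19775 genes have a probe set of their own), 9 were bright enough to be tested among 14308 tested genes, and KLF9 was not. Measurements from bulk cultures cannot tell fewer cells of a type apart from less RNA per cell.

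Kruppel-like factors are transcription factors with a C-terminal set of zinc fingers that binds GC-rich and CACCC sequences, and their differing N-terminal parts recruit activators or repressors. In intestinal epithelium KLF4 is known from differentiated cells of the upper crypt and is needed for goblet cell maturation, whereas KLF5 is known from dividing crypt cells, where it favours proliferation. Notch signalling has been described to hold KLF4 low in this epithelium. KLF10 and KLF11 were first described as genes induced by transforming growth factor beta (TGF-beta), and KLF2, KLF4, KLF6 and KLF10 respond quickly to growth and stress signals in many cells.

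Of the 9 tested genes, 1 rose (KLF4), 1 fell (KLF10) and 7 did not pass, by limma with Benjamini-Hochberg adjustment over all genes and a threshold of 0.05. Of all genes tested, 7.14% passed, with 653 that rose (4.56%) and 368 that fell (2.57%). Without adjustment, 3 members with a positive and 2 with a negative change had a limma p under 0.05. Of all 14308 genes tested, 2145 with a positive and 1366 with a negative change did so. CompE and DMSO arrays did not overlap for 5 members, 3 of them higher (KLF3, KLF4 and KLF11) and 2 lower (KLF5 and KLF10). Of all genes, 32.2% did not overlap, 19.1% higher and 13.0% lower. The median log2 change of the members was 0.17 (the value of KLF2), beside 0.02 for all genes. With the mean over the probe sets of each gene, the middle member was KLF7 at 0.036, beside a median of 0.012 for all genes. The fold changes of the called members were 1.25 (KLF4) and 1.28 (KLF10). KLF4 lost its call whichever of the 6 arrays was left out, and KLF10 kept its call only without CompE replicate 3.

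The upstream sequences of KLF4 and KLF5, the pair with described opposite roles, are shown because the family binds GC boxes and CACCC boxes and can act on its own promoters. Windows before RefSeq start sites on GRCh38.p14 were read for 8 of the 10 genes, with 13 windows in all. Each window holds the 250 bases before a start site, 5′ to 3′ on the gene's strand. Capitals mark the GC box GGGCGG and the CACCC box CACCC on either strand. The KLF4 window is chr9:107489770-107490019 on the minus strand, and KLF5 has 2 windows on the plus strand, chr13:73054726-73054975 for the upstream start and chr13:73058755-73059004 for the downstream start.
KLF4: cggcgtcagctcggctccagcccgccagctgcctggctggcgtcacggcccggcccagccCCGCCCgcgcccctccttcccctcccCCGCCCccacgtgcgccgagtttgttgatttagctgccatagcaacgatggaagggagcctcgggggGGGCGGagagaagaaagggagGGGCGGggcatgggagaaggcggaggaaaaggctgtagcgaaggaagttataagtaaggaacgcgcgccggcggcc
KLF5 upstream start: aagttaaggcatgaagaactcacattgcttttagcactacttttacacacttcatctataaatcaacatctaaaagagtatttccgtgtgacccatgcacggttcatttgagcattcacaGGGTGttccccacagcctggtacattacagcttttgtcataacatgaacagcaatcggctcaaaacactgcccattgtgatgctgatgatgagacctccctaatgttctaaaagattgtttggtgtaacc
KLF5 downstream start: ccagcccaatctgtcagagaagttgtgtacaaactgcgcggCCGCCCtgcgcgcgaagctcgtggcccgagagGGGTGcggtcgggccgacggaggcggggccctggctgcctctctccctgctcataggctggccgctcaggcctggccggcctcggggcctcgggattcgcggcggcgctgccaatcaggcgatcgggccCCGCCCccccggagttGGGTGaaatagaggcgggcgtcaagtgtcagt

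The KLF4 window held 4 GC boxes and 0 CACCC boxes. The downstream KLF5 window held 2 of each, and the upstream one held 0 GC boxes and 1 CACCC box. Their GC contents were 69.2% (KLF4), 70.8% (KLF5 downstream) and 40.8% (KLF5 upstream). Among the 35116 windows of all genes, 42.6% held a GC box and 54.7% a CACCC box; among the 13 windows of the members the numbers were 8 and 6. The letters TGGGAA, the core of the site of RBPJ, the DNA-binding partner of Notch, were in none of these 3 windows on either strand (1 of 13 member windows, 20.8% of all). The letters CACGNG, a site type of the HES repressors that also covers E-boxes read by other factors, occurred once in the KLF4 window and once in the downstream KLF5 window (8 of 13 and 26.7%). In the latter they overlap a match of the N-box CACNAG (2 of 13 and 32%). CAGCTG, an E-box of the type that ATOH1 can bind, occurred once in the KLF4 window (2 of 13 and 14%). No window of KLF3 or KLF10 was read, which does not mean that these genes lack a start site. Windows on chromosome 8, where KLF10 lies, were left out when the members were read. The shares over all windows did not leave that chromosome out. The 13 windows share genes, since KLF5, KLF7 and KLF11 have more than 1 each, and the shares over all windows were not matched for GC content. These matches describe letters, and binding was not measured.

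KLF4 rose in CompE. Its brightest probe set, 221841_s_at, read 975, 984 and 923 on the DMSO arrays and 1232, 1182 and 1183 on the CompE arrays. Every CompE array lay above every DMSO array, and the replicates of each group lay close together. The means were 960 ± 32.9 and 1199 ± 28.7 (SD, n = 3 each), a 1.25-fold rise (log2 change 0.32 ± 0.05 SE, 95% confidence interval 0.19 to 0.45, limma adjusted p = 0.0242). The other probe set, 220266_s_at, gave 137, 123 and 138 in DMSO and 176, 171 and 173 in CompE. Its groups were apart as well, and when all 26962 probe sets past the filter were tested (4.28% of them passed) it rose by 0.39 (adjusted p = 0.0384). That call ended with any array left out (adjusted p 0.0963 to 0.129), centred on the array medians (0.0649) and centred on hybridisation controls (0.106). Both probe sets of KLF4 therefore gave a rise of similar size, although they measure the same RNA and are no independent replicates. When 1 array was left out, the log2 change of the brightest probe set stayed between 0.29 and 0.34 while its adjusted p lay between 0.0615 and 0.0973, whichever array it was.

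KLF5 was lower in CompE on both of its probe sets, and 1 of them passed. The brighter, 209211_at, read 3043, 3029 and 2760 in DMSO and 2381, 2470 and 2554 in CompE. The groups did not overlap, with means of 2944 ± 159 and 2468 ± 86.6 (SD, n = 3 each). The log2 difference of -0.25 ± 0.06 SE (95% confidence interval -0.41 to -0.10) did not pass over all genes (limma adjusted p = 0.0695). The dimmer probe set, 209212_s_at, read 1815, 1818 and 1703 in DMSO and 1405, 1153 and 1260 in CompE. It fell by 0.49 on the log2 scale (95% confidence interval -0.70 to -0.27, limma adjusted p = 0.0431 over all probe sets), a 1.40-fold difference. That call ended whichever array was left out (adjusted p 0.0695 to 0.139). With the mean of both probe sets standing for the gene, KLF5 fell by 0.37 (limma adjusted p = 0.0308).

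The log2 intensity of KLF4 minus that of KLF5 was taken on each array from the brightest probe sets; only its change between groups has a meaning, since the levels belong to different probes. It was -1.64, -1.62 and -1.58 on the DMSO arrays and -0.95, -1.06 and -1.11 on the CompE arrays. All CompE values lay above all DMSO values. The difference was 0.57 (means -1.62 ± 0.03 and -1.04 ± 0.08, SD, n = 3 each; two-sided exact permutation p = 0.1, the smallest that 3 against 3 arrays can give). Scaling an array by a constant leaves this value as it is, and with 1 array left out it ran from 0.53 to 0.61. With this number of arrays the test could not pass 0.05, and the value does not say which of the genes moved.

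**Figure D1:**
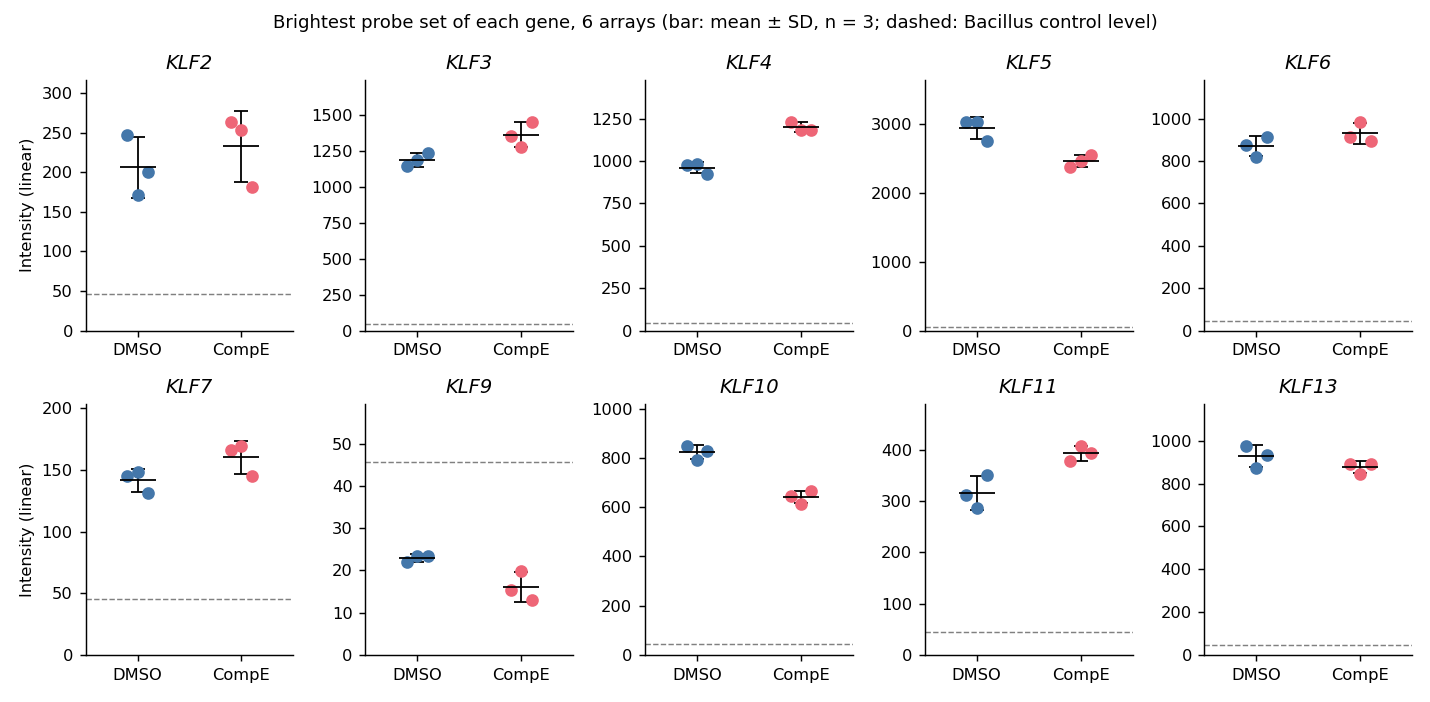
Intensity (linear scale, each panel from 0) of the brightest probe set of each of the 10 KLF genes on the 3 DMSO and 3 CompE arrays, with mean ± SD (n = 3) and the Bacillus control level of 45.7 as a dashed line. Of the genes above the dashed line, KLF3, KLF4 and KLF11 have CompE points above all DMSO points, and KLF5 and KLF10 below them. Among all genes tested, 32.2% did not overlap in either direction. KLF9 lies under the dashed line in both groups.

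Of the pair named for TGF-beta, KLF10, a repressor that recruits SIN3 complexes, fell in CompE. Its single probe set, 202393_s_at, read 849, 792 and 828 in DMSO and 645, 614 and 664 in CompE. The lowest DMSO array stood well above the highest CompE array. The means were 823 ± 29.0 and 641 ± 25.3 (SD, n = 3 each), a 1.28-fold fall (log2 change -0.36 ± 0.06 SE, 95% confidence interval -0.50 to -0.22, limma adjusted p = 0.0227). With 1 array left out the change lay between -0.39 and -0.33, and the adjusted p between 0.0496, without CompE replicate 3, and 0.0865, without CompE replicate 1. No second probe set of KLF10 was there to compare.

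KLF11, the close relative of KLF10, did not pass, and its 2 probe sets went opposite ways. The brighter, 218486_at, read 311, 287 and 351 in DMSO and 378, 408 and 395 in CompE, so that its groups did not overlap. Its log2 difference was 0.32 ± 0.09 SE (95% confidence interval 0.11 to 0.53, limma adjusted p = 0.0881). The dimmer, 1553137_s_at, read 94.5, 114 and 100.3 in DMSO and 88.4, 82.9 and 100.4 in CompE, with overlapping groups and a log2 difference of -0.18 (limma adjusted p = 0.369 over all probe sets). The mean of both gave 0.07 (limma adjusted p = 0.581). The direction of KLF11 thus depended on the probe set.

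**Figure D2:**
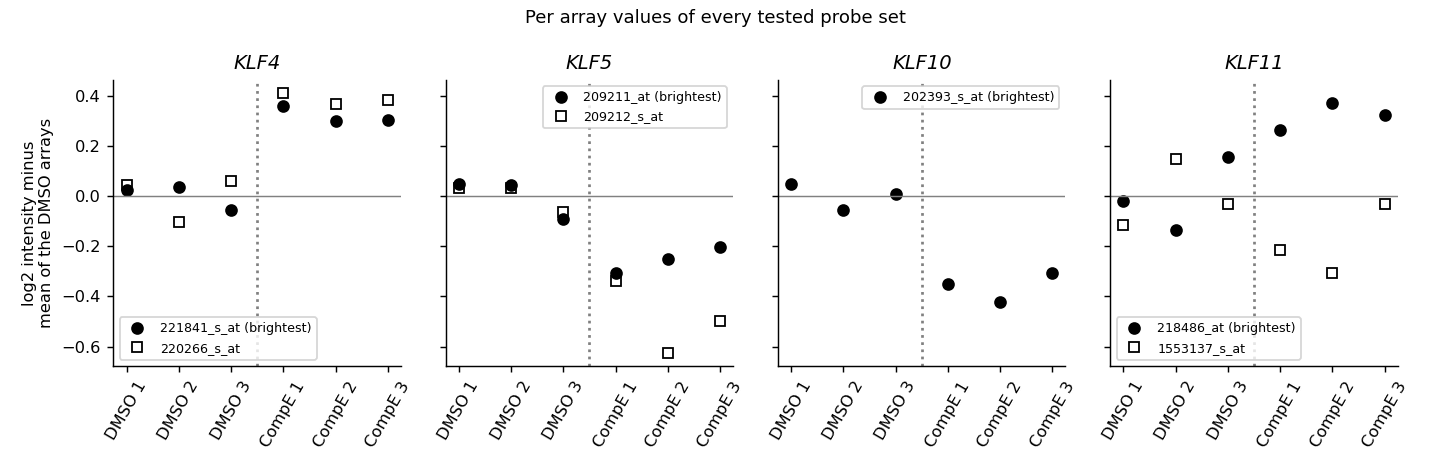
log2 intensity of every tested probe set of KLF4, KLF5, KLF10 and KLF11 on each array, minus the mean of the 3 DMSO arrays for that probe set (filled circles: brightest probe set; open squares: the other). On the CompE arrays KLF4 lies at 0.30 to 0.41, KLF10 at -0.42 to -0.31 and KLF5 at -0.63 to -0.20, while the probe sets of KLF11 part.

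KLF3, a repressor that works through the corepressor CtBP, was slightly brighter in CompE without passing. Its brightest probe set, 225133_at, read 1140, 1185 and 1234 in DMSO and 1354, 1277 and 1452 in CompE, which are groups that do not overlap. The log2 difference was 0.20 ± 0.07 SE (95% confidence interval 0.03 to 0.36, limma adjusted p = 0.147). Its 3 other probe sets overlapped between the groups, with differences of 0.15, 0.14 and 0.0016. The gene was past the threshold only with variance moderation that follows intensity (limma adjusted p = 0.0182) and among the 10896 least variable probe sets (adjusted p = 0.00045), both at the same difference.

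KLF6, a widely expressed factor that is induced by injury and stress, showed overlapping groups on all 5 of its probe sets. The brightest, 224606_at, read 877, 820 and 915 in DMSO and 912, 987 and 895 in CompE. The log2 difference was 0.10 (95% confidence interval -0.07 to 0.26, limma adjusted p = 0.435). The 4 probe sets above the Bacillus control level ranged from -0.05 to 0.12, while the fifth, 211610_at, lay below that level in both groups. With the arrays centred on their hybridisation controls the brightest turned to -0.05. KLF7, its closest relative in the family, had 5 dim probe sets with differences from -0.15 to 0.18, none past the threshold (lowest limma adjusted p = 0.302 over all probe sets). The one that stood for the gene, 240432_x_at, read 145, 148 and 131 in DMSO and 166, 170 and 145 in CompE. Its groups overlapped, and the x in its name marks probes that can match other sequences.

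KLF2, known for quiescence of lymphocytes and endothelium, was the least precisely measured member. Its brighter probe set, 219371_s_at, read 247, 171 and 200.3 in DMSO and 264, 253 and 182 in CompE. Replicates of either group spanned almost the whole range of the other. The log2 difference of 0.17 ± 0.20 SE (95% confidence interval -0.31 to 0.65, limma adjusted p = 0.641) spanned changes of either sign. With 1 array left out it ran from 0.05 to 0.34.

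KLF9 and KLF13 belong to the branch of the family that represses through SIN3A. KLF9, which glucocorticoid and thyroid hormones induce, was not above the level of the Bacillus controls, transcripts that human RNA does not hold. The brightest of its 5 probe sets, 203543_s_at, read 22.0, 23.5 and 23.4 in DMSO and 15.4, 19.8 and 12.9 in CompE, against a control level of 45.7. No fold is given, since both groups lay below that level; with no filter on dim probe sets its limma adjusted p was 0.195. KLF13 was bright and did not pass. Its brightest probe set, 225390_s_at, read 976, 873 and 936 in DMSO and 893, 845 and 891 in CompE. Its groups overlapped (log2 difference -0.08, 95% confidence interval -0.23 to 0.07, limma adjusted p = 0.472). The second, 219878_s_at, read 299, 371 and 334 in DMSO and 254, 192 and 294 in CompE. There the groups were just apart, with a difference of -0.46 that did not pass (95% confidence interval -0.88 to -0.03, limma adjusted p = 0.201 over all probe sets).

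**Figure D3:**
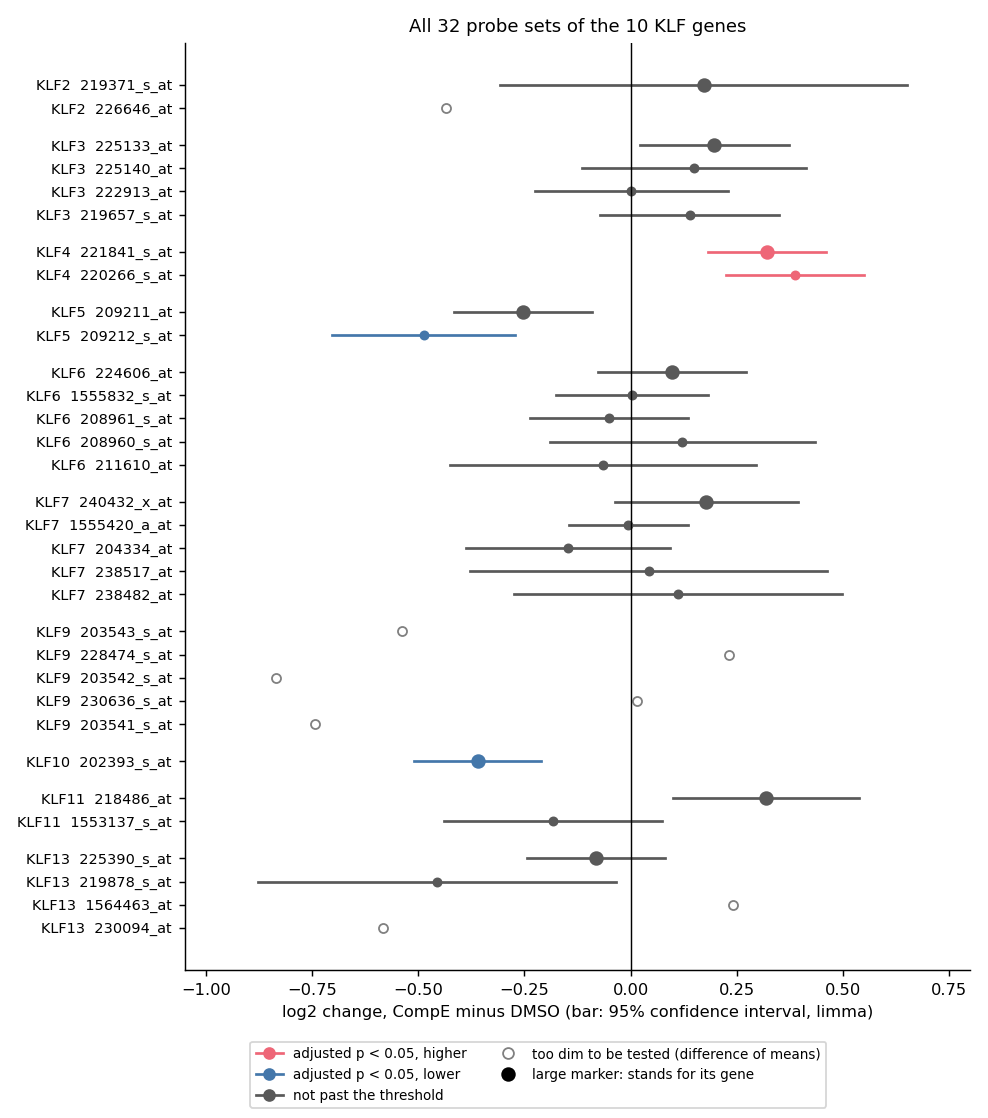
log2 change, CompE minus DMSO, of all 32 probe sets of the 10 KLF genes, with 95% confidence intervals from limma over all probe sets for the 24 that were tested; open circles are the 8 too dim for a test. Both KLF4 probe sets (0.32 and 0.39) lie right of 0 past the threshold, 1 KLF5 probe set (-0.49) and the KLF10 probe set (-0.36) lie left past it, and 20 did not pass.

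Of 7 other genes of the KLF family, 5 were tested and 0 passed by limma (0 also at an unadjusted p under 0.05). Beside these and the following counts, 7.14% of all genes tested passed, with a median log2 change of 0.02. At an unadjusted limma p under 0.05, 2145 of all 14308 genes were positive and 1366 negative. KLF15 and KLF16 were the only ones of the 5 with group means above the Bacillus control level, and their differences were 0.22 and -0.16. Among the 9 genes of the related SP family, whose zinc fingers bind the same GC boxes, 7 were tested; 1 rose, 0 fell and 6 did not pass (median 0.04). The one was SP8, which rose from 262 ± 19.3 to 408 ± 14.0 (SD, n = 3 each; 0.64 on the log2 scale, limma adjusted p = 0.00843), although its dimmer probe set gave -0.13 and the mean of both did not pass (0.26, adjusted p = 0.176). Of 13 genes of KLF corepressors, coactivators and ubiquitin ligases, all were tested and 0 passed by limma (2 positive at an unadjusted p under 0.05; median 0.07). That list holds SIN3A (0.00019), CTBP1 (0.12) and the KLF5 ligases WWP1 (0.07) and FBXW7 (-0.04).

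Upstream pathways are read against the 4.56% of all genes that rose and the 2.57% that fell. Of 7 genes of the ERK5 and MEF2 pathway, which induces KLF2 and KLF4 in endothelium, 1 rose, 0 fell and 6 did not pass (median 0.11). The gene was MEF2D, a MEF2 transcription factor, from 99.6 ± 4.69 to 138 ± 3.75 (SD, n = 3 each; 0.47, limma adjusted p = 0.0107); its 2 dimmer probe sets gave 0.23 and 0.22 and did not pass, and neither did the mean of its probe sets (0.31, adjusted p = 0.0678). Its call ended without DMSO replicate 2 (adjusted p = 0.0514) or CompE replicate 1 (adjusted p = 0.0578). Of 12 TGF-beta pathway genes 10 were tested; 1 rose, 0 fell and 9 did not pass (median 0.12). That was SKIL, a SMAD-binding repressor induced by TGF-beta (0.27, limma adjusted p = 0.0416); the same probe set did not pass over all probe sets (adjusted p = 0.0656), with no filter on dim probe sets (0.103), centred on the array medians (0.0542) or on hybridisation controls (a difference of 0.13, adjusted p = 0.289), with quantile normalization (0.0595), with the mean of probe sets (0.108) or with any array left out (highest adjusted p = 0.125).

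Immediate early genes, the class to which KLF2, KLF4, KLF6 and KLF10 are often counted, moved both ways. Of 13 in the list 10 were tested; 2 rose, 3 fell and 5 did not pass (median -0.19), beside 4.56% that rose and 2.57% that fell among all genes tested (median 0.02). JUN, an AP-1 subunit, rose from 873 ± 39.6 to 1455 ± 31.6 (SD, n = 3 each; 0.74, limma adjusted p = 0.00259). FOS, its AP-1 partner, fell from 140 ± 18.8 to 60.5 ± 4.51 (log2 change -1.20, limma adjusted p = 0.00515). IER3 and ATF3 were the other falls (-0.80 and -0.82), and the phosphatase gene DUSP1 the other rise (0.44), although its second tested probe set gave 0.05. IER3 and ATF3 were named after their values were seen. The calls of DUSP1, with any array left out (highest limma adjusted p = 0.0769), of ATF3, with any but CompE replicate 2 (0.109), and of IER3, without DMSO replicate 3 (0.0502), were lost. With the mean of its probe sets DUSP1 stood at 0.25 (limma adjusted p = 0.207) and ATF3 at -0.59 (adjusted p = 0.075), and with no filter on dim probe sets their adjusted p was 0.0633 and 0.0825. Centred on hybridisation controls, DUSP1 did not pass either (0.29, adjusted p = 0.0725). EGR1, which induces KLF5 in other cells, differed by -0.20 and did not pass (limma adjusted p = 0.639). Of 6 glucocorticoid-responsive genes 5 were tested, of which 1 rose (DUSP1, shared with the list above), 1 fell (SGK1, a kinase gene, -0.57, with a CompE mean of 39.3 that the Bacillus controls exceed) and 3 did not pass. The call of SGK1 ended with any array but CompE replicate 2 left out (highest limma adjusted p = 0.0964), with no filter on dim probe sets (0.0751) and with trended robust moderation (0.0528).

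Genes reported elsewhere as KLF targets come next, with 7.14% of all genes tested passing in either direction. At an unadjusted limma p under 0.05, 2145 of all 14308 genes were positive and 1366 negative. Of 9 reported KLF4 targets 7 were tested and 0 passed by limma (0 at an unadjusted p under 0.05; median -0.03). CDKN1A, the cell cycle inhibitor gene that KLF4 activates in other colon lines, read 1713 ± 217 in DMSO and 1580 ± 108 in CompE, with overlapping groups (limma adjusted p = 0.586). Of 9 reported KLF5 targets 7 were tested; 0 rose, 1 fell and 6 did not pass (median -0.0049). The one was FGFBP1, a gene of a carrier protein for fibroblast growth factors, which fell from 3803 ± 188 to 2520 ± 142 (SD, n = 3 each; log2 change -0.59, limma adjusted p = 0.00899). CCND1 and CCNB1, cyclin genes on both target lists, differed by -0.02 and -0.0049. Of 6 reported KLF2 targets 3 were tested and 0 passed by limma (1 negative at an unadjusted p under 0.05).

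**Figure D4:**
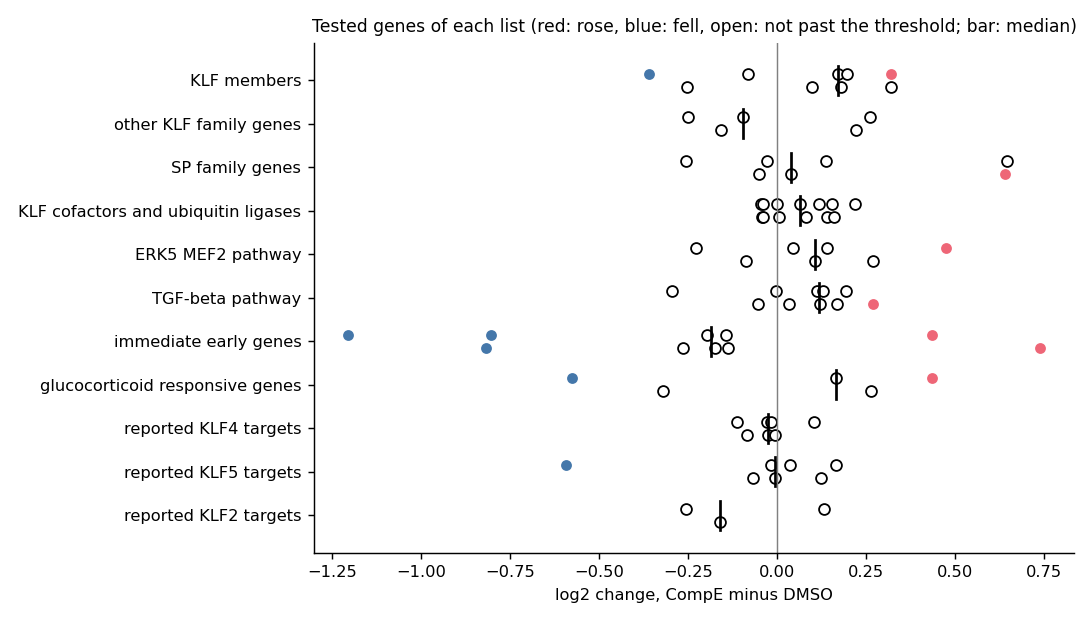
log2 change, CompE minus DMSO, of each tested gene of the members and of the 10 other lists; each point is a gene, filled where it passed (red higher, blue lower), and the bar is the list's median (3 of the 5 other KLF genes lie below the Bacillus control level). Immediate early genes reach from -1.20 (FOS) to 0.74 (JUN), and all 7 tested KLF4 targets lie between -0.11 and 0.10.

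Readouts of the cells and arrays that stood beside these values were as follows. HES1, the repressor that Notch induces, fell from 811 ± 58.2 to 289 ± 29.2 (SD, n = 3 each; log2 change -1.49, limma adjusted p = 0.00198). All 10 colon epithelium markers were above the Bacillus control level. Of these, 2 rose, 0 fell and 8 did not pass, beside 4.56% that rose and 2.57% that fell among all genes. Their median was 0.06, and 7 of the 10 differences were positive. The rises were CDX2, an intestinal identity factor (0.43, limma adjusted p = 0.00873), and the mucin gene MUC2 (1.05, limma adjusted p = 0.00164). The keratin genes KRT8, KRT18 and KRT20 differed by -0.09, -0.09 and -0.02. Of 7 endothelial markers with a probe set 1 was above that level, of 7 leukocyte markers 2, and of 8 fibroblast markers 4; summed intensities of the lists were 288 to 375 in DMSO and 267 to 310 in CompE for endothelium, 1631 to 1945 and 1281 to 1546 for leukocytes (mostly LYZ, which epithelium also makes) and 308 to 438 and 367 to 373 for fibroblasts. Median intensities of the arrays were 36.9 to 38.6. The ratio of 3' to 5' ACTB probe sets was 1.44 ± 0.0201 in DMSO and 1.51 ± 0.0193 in CompE (SD, n = 3 each, exact permutation p = 0.1). That of GAPDH went the other way, with 0.968 ± 0.0106 in DMSO and 0.946 ± 0.0264 in CompE (exact permutation p = 0.3). The hybridisation controls were 0.14 log2 units brighter in CompE (exact permutation p = 0.1). The part of these ratios and controls in the results was not tested. Centred on those controls, the genes tested had a median of -0.12 in place of 0.02, with 340 rises and 1552 falls; KLF4 then stood at 0.18 (limma adjusted p = 0.115), KLF5 at -0.40 (adjusted p = 0.03) and KLF10 at -0.50 (adjusted p = 0.0183).

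**Figure D5:**
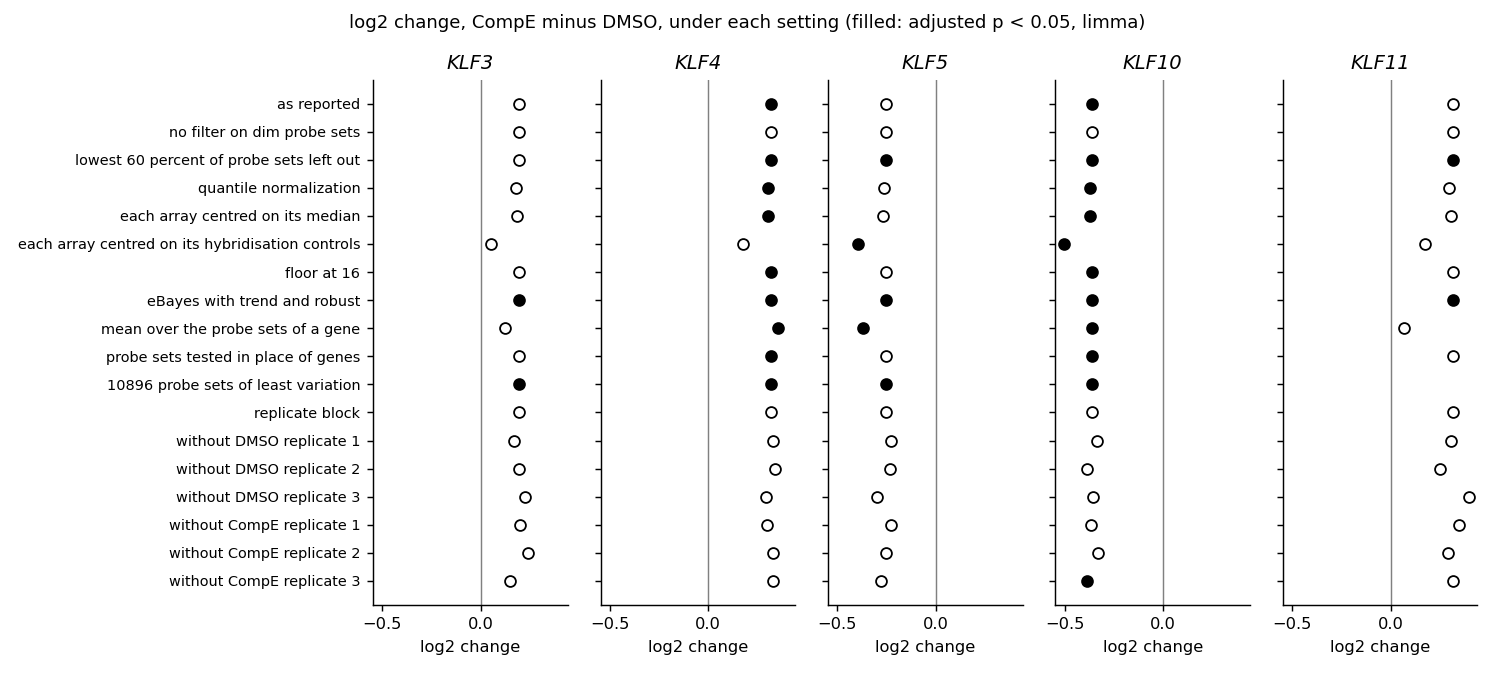
log2 change, CompE minus DMSO, of KLF3, KLF4, KLF5, KLF10 and KLF11 as reported and under 17 other settings (16 for KLF11), filled where the limma adjusted p was under 0.05. Each gene keeps its side of 0 in all of them; KLF4 is past the threshold in 8 of 17 settings and KLF10 in 10 of 17.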

How the data were processed

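RNA of 6 LS174T cultures (3 DMSO, 3 CompE, grouped by sample title) was amplified from the 3' end, labelled with biotin and hybridised, 1 array each, per the labels' protocols. The deposited values are linear probe set intensities that the authors scaled between arrays with dChip, per the series design text; for its version and its use of mismatch probes, nothing is given in the sources used here.

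Values were raised to at least 1 and log2 transformed without further normalization. The 62 control probe sets and the lowest 40% by mean log2 over all 6 arrays (below 24.4) were left out. Symbols came from the platform annotation of 2016, updated through Entrez identifiers (41043 of 41097 probe sets with 1 gene); the brightest probe set stood for its gene, and all 32 member probe sets are reported. CompE was compared with DMSO by limma 3.58.1 (R 4.3.3), two-sided, adjusted by Benjamini-Hochberg over 14308 genes, or over 26962 probe sets where stated; the script was tested on simulated data. The Bacillus control level is the 95th percentile of 27 probe sets. The number of arrays limits precision (median SE 0.08); where replicates differ only technically, p-values measure that spread. Named were all members, HES1, CDKN1A and up to 2 genes per list with the smallest p among those that passed; other list genes were named after their values were seen. Members and lists were chosen with earlier results of these data known. Alternatives covered filter, scaling, floor, moderation, probe set choice, replicate block and left-out arrays. The correlations of same-numbered arrays' deviations from their group means were 0.02, -0.08 and -0.02, so the numbers were not taken as pairs.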

Additional observations from a re-analysis of the deposited data

How the results depend on the processing

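Of the members' alternatives, KLF2 and KLF13 kept their direction and stayed short of the threshold in all (16 and 17). KLF6 turned to -0.046 centred on hybridisation controls, and KLF7 to -0.0053 among the 10896 probe sets of least variation, where another probe set stood for it. KLF4 lost its call with no filter (0.32, limma adjusted p = 0.0688), centred on hybridisation controls (0.18) and with any array left out (0.29 to 0.34); KLF10 with no filter (-0.36, adjusted p = 0.0653) and with any array but CompE replicate 3 left out (-0.39 to -0.33). Adjusted p ran from 2.75e-09 to 0.115 for KLF4 and from 1.6e-11 to 0.101 for KLF10, lowest among the least variable probe sets, a choice that by its construction takes small errors. How the authors selected their 10896 probes is not stated in these sources; this set, of the smallest pooled coefficients of variation within groups, only approximates it.

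KLF5 passed with the lowest 60% left out (-0.25), centred on hybridisation controls (-0.40), with trended robust moderation (-0.25), with the mean of its probe sets (-0.37) and among the least variable (-0.25). KLF3 passed with trended robust moderation and among the least variable (both 0.20). KLF11 passed with the lowest 60% left out and with trended robust moderation (both 0.32). Against 2 members past the threshold there were 0 with no filter, 4 with the lowest 60% left out, 5 with trended robust moderation, 4 among the least variable and 0 to 1 with 1 array left out. Against 1021 of 14308 genes tested, 363 of 19775, 1751 of 10843, 2254 of 14308 and 2939 of 6872 passed in that order. With 1 array left out 252 to 519 of 14308 passed, and centred on hybridisation controls 1892 of 14308. The share of all genes past the threshold therefore changed with the setting, as the members' count did. With the mean over the probe sets of each gene, the members that passed were KLF4, KLF5 and KLF10 (limma adjusted p = 0.0182, 0.0308 and 0.0272). The KLF4 minus KLF5 difference was 0.72 with that mean.

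With the replicate number as a block, 0 members and 102 genes passed by limma (KLF4 0.32, adjusted p = 0.115; KLF10 -0.36, adjusted p = 0.101); the numbers did not pair the arrays, and the fit has fewer residual degrees of freedom. KLF2 and KLF11 had no value among the least variable probe sets. Signal over background limits KLF9, 1 probe set of KLF2, 1 of KLF6 (211610_at) and 2 of KLF13 (1564463_at and 230094_at), whose group means did not reach the Bacillus control level.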

Other observations

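The 8 probe sets of the members that were too dim for a test came from KLF9 (5), KLF13 (2) and KLF2 (1). The second KLF2 probe set, 226646_at, read 6.01, 21.5 and 10.6 in DMSO and 3.37, 11.3 and 14.6 in CompE, below the Bacillus control level of 45.7 on all 6 arrays, whereas 219371_s_at of the same gene was above it on all of them. For KLF13, 1564463_at had means of 13.9 and 16.9 and 230094_at means of 5.97 and 7.17 in DMSO and CompE, also below that level. SP5, an SP family gene known as a Wnt target, had groups that did not overlap and a difference of 0.65 that did not pass (limma adjusted p = 0.141), with a DMSO mean of 42.1 below the control level.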
